A study of Mus musculus with 9 samples.

Results

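The genes described here import cystine, make glutathione, break it down and use it against peroxides: Slc7a11, Slc3a2, Cth, Cbs, Gclc, Gclm, Gss, Chac1, Gpx1 and Gpx4. They were chosen by name, and every array probe whose RefSeq accession maps to 1 of these symbols was taken, which gave 11 of the 26413 named probes. All 10 genes were among the 14506 genes tested. Cth had 2 probes and each of the others had 1.

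The measurements were made on erythroblasts, nucleated precursors of red cells, that were sorted from bone marrow. The mice were wild type, of strain C57BL/6J, and all were labelled female. The labels name the sorted cells subset II erythroblasts and give no gate or surface marker for that subset. There were 3 groups of 3 single-colour arrays: a normal diet (ND), a low iron diet for 3 weeks after weaning and a low iron diet for 7 weeks after weaning. No group carried a genetic change. Ages, and whether a sample was 1 animal or a pool, were not given in the sources used here. The samples of a group are biological replicates, per the design text.

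Cystine, the oxidised pair form of cysteine, enters cells through an exchanger made of a light chain, Slc7a11, and a heavy chain, Slc3a2, which anchors several amino acid transporters in the membrane. Inside the cell cystine is reduced to cysteine, which is also made from homocysteine by transsulfuration. Cysteine is joined to glutamate and then to glycine to give glutathione, the main small thiol of cells and the electron donor of glutathione peroxidases. Erythroblasts handle much iron and oxygen while they make heme, and glutathione also takes part in iron-sulfur cluster chemistry.

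Promoter sequence is shown for the 3 genes in which a searched motif was found, since these are also genes whose known regulators were on the array. The table of RefSeq promoters (build GRCm38.p6) held 8 of the 10 genes, each with the 250 bases before and 50 after the annotated start, and did not list Cth or Gclc. The letters TGATGCAA, a composite C/EBP and ATF motif known as a binding sequence of Atf4 with a C/EBP partner, and TGACNNNGC, the core of the antioxidant response element bound by Nfe2l2, were searched on both strands. The 2 motifs do not share a match in these genes. The 250 bases before the start are printed 5′ to 3′ along the gene's strand, with matches in capitals. The Slc7a11 stretch is chr3:50443614-50443863, minus strand, and the capitals mark TGATGCAA once on each strand. It lies inside the gene as annotated (chr3:50364936-50499087), so the start used there is not the gene's outer end. The Chac1 stretch is chr2:119350992-119351241, plus strand, and the capitals mark TGATGCAA on the opposite strand. The Gclm stretch is chr3:122245307-122245556, plus strand, and the capitals mark TGACNNNGC on the opposite strand. It runs past the first annotated base of the gene, 122245487.
Slc7a11: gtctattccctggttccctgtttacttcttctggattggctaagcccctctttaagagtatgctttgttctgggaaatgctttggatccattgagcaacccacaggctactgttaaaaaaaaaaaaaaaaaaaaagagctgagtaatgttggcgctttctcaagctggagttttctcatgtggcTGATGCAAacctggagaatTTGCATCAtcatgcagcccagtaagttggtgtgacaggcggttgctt
Chac1: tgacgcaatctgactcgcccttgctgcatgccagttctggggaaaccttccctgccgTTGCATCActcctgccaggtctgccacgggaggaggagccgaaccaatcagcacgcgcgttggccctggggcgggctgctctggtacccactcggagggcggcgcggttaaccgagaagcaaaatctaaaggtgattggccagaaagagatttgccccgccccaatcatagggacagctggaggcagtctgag
Gclm: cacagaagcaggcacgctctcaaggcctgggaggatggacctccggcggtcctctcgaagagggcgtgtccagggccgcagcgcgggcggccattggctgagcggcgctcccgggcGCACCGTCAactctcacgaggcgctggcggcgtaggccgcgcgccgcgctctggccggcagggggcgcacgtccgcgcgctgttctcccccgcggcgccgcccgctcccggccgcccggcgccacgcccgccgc

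TGATGCAA was present in 0.895% of 32851 promoter windows of this length, and in the windows of Slc7a11 and Chac1 among the 8 genes. Its 2 matches in Slc7a11 began 66 and 47 bases before the start, and its match in Chac1 began 193 bases before it. TGACNNNGC was present in 12.4% of the windows and, among the 8 genes, in Gclm alone, 134 bases before the start. A match describes letters in a window and was not tested as a bound site.

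**Figure D1:**
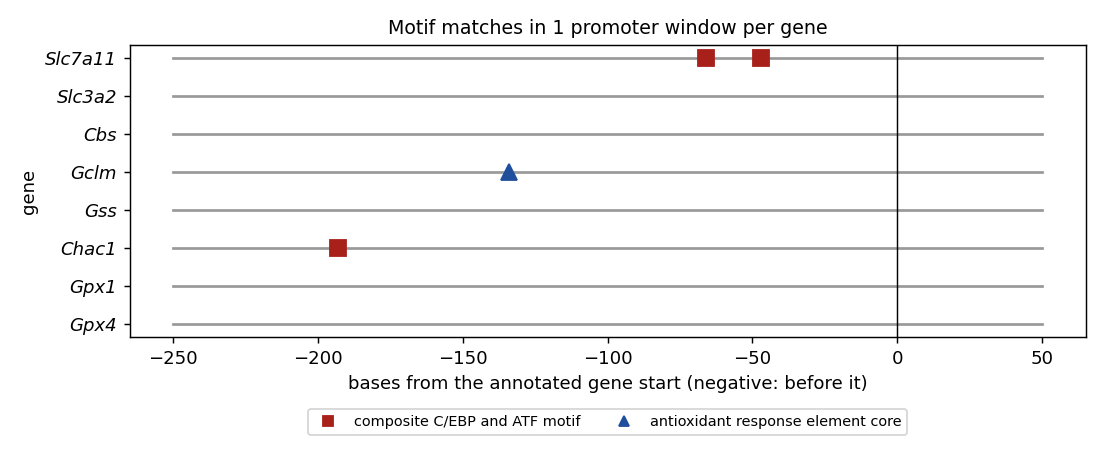
Positions of motif matches along 1 promoter window for each of the 8 genes in the table, with 1 line per gene. The horizontal axis gives bases from the start annotated for that promoter, which is not always the gene's outer end. Slc7a11 holds 2 matches to the composite C/EBP and ATF motif, Chac1 holds 1, and Gclm holds the only match to the antioxidant response element core.

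A level below is the log2 signal of a probe minus the 75th percentile of its array, so a negative level is a signal under that percentile, and levels of different probes are not compared. Between 45.0% and 70.7% of spots were well above background (56.7% to 70.7% at 3 weeks, 65.3% to 66.2% on ND, 45.0% to 53.4% at 7 weeks). The 75th percentile itself lay at a signal of 1499 to 1616 on ND, 1677 to 1837 for the 3 week arrays and 791.7 to 1087 for the 7 week arrays. Control spots for spike-in RNA had a mean log2 signal, minus that percentile, of 0.50 to 1.74 on ND and 1.10 to 1.57 at 3 weeks. At 7 weeks it was 4.44 to 5.35. The part of this difference in the 7 week results below was not tested. Each group was hybridised on a slide of its own, so slide and diet cannot be told apart. All 13 erythroblast markers with a probe were well above background on all 9 arrays. Monocyte and macrophage markers were also present, 12 of 12 above background on all ND and 3 week arrays and 11 of 12 on all 7 week arrays. Their summed signal, in multiples of the 75th percentile, was 41.9 to 62.2 on ND, 75.2 to 103 at 3 weeks and 24.4 to 31.2 at 7 weeks, and none of these ranges overlap. In the same units the erythroblast markers summed to 2231 to 2390 on ND, 1947 to 2072 at 3 weeks and 2781 to 4371 at 7 weeks. B lineage markers summed to 4.26 to 6.91, 9.0 to 21.4 and 3.38 to 9.65. The sums of neutrophil markers (220 to 626, 286 to 479 and 353 to 571) and of megakaryocyte markers (23.8 to 56.6, 24.2 to 69.5 and 12.5 to 43.4) overlapped between the groups, and the T and NK cell markers summed to 17.99 to 20.3, 17.8 to 24.5 and 22.3 to 38.4. The part of other cells in the results below was not tested. A lower signal in such bulk samples can be fewer cells of a type or less RNA per cell, which cannot be told apart.

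The ND arrays differed from their label in sex-linked genes. The Y-linked gene Eif2s3y stood at 5.12 and 4.82 on ND replicates 1 and 2 and at -3.78 on ND replicate 3, where it was still well above background. It did not stand well above background on any low iron array. Xist, transcribed from the inactive X chromosome, had 2 probes. The first stood at -5.59 and -5.24 on ND replicates 1 and 2, where it was not well above background, and at -0.73 on ND replicate 3. On the low iron arrays it lay between -1.16 and 1.46. The other probe stood at -6.73, -4.815 and -0.41 on ND, well above background on replicates 2 and 3, and between -2.06 and 1.18 on the low iron arrays. The libraries labelled ND replicates 1 and 2 thus go against the label female, so the differences of the 10 genes from ND are also given with ND replicate 3 as the only control array, and the calls among other pathway genes as counts; that fit takes the lone array to vary like the other groups.

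Low iron was accompanied by a higher level of Slc7a11, Cth and Gss at both times, by higher Cbs and lower Gclc at 7 weeks, and by no call for Slc3a2, Gclm, Chac1, Gpx1 or Gpx4 at either time against ND. At 3 weeks 3 of the 10 genes rose and 0 fell, where 3.52% of all genes tested rose and 7.88% fell. At an unadjusted p under 0.05, 4 of the 10 were higher and 2 lower, beside 4289 of all 14506 genes in either direction. At 7 weeks 4 rose and 1 fell, where 10.7% of all genes rose and 18.7% fell. A call is an adjusted p under 0.05 from limma, two-sided and adjusted by the Benjamini-Hochberg method across the 14506 genes, and each difference is given ± its standard error with 3 arrays in each group. The median log2 difference of the 10 genes was 0.36 at 3 weeks and 0.99 at 7 weeks, beside -0.17 and -0.26 over all genes. Slc7a11 was not well above background on any ND array. Among the other 9 genes, 2 rose and 0 fell at 3 weeks and 3 rose and 1 fell at 7 weeks. The medians were the same with Slc7a11 set against the lowest ND spots well above background, as given below. Both comparisons use the same ND arrays. With ND replicate 3 as the only control array, limma called none of the 10 genes at either time; 0 genes of all passed at 3 weeks and 1 at 7 weeks, with 1588 and 3047 at an unadjusted p under 0.05, of which 3 and 3 were among the 10.

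**Figure D2:**
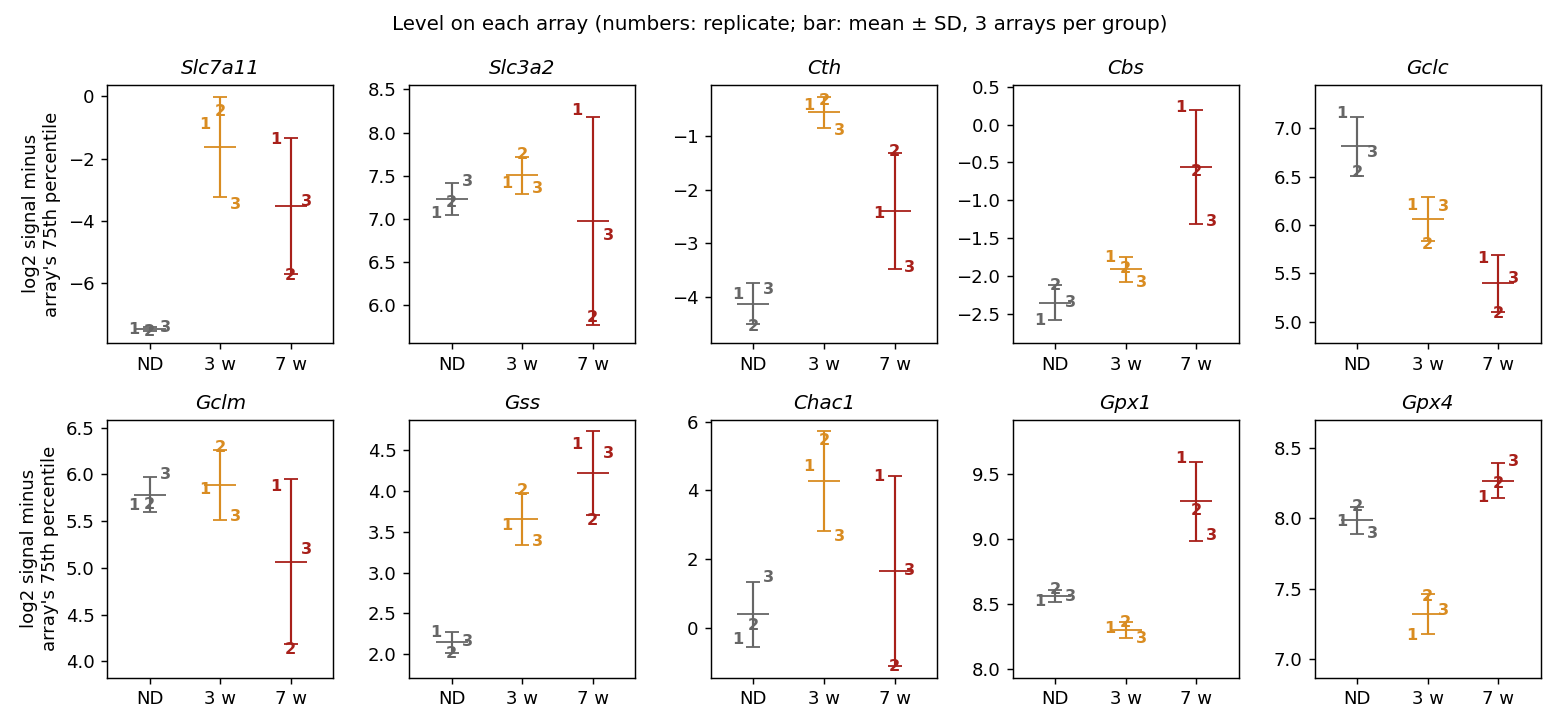
Level of each gene on each array (log2 signal minus the array's 75th percentile, vertical axis, scaled separately per gene), with the replicate number as the plotted symbol and the mean ± SD of 3 arrays for normal diet (ND), 3 weeks (3 w) and 7 weeks (7 w) of low iron diet. The 3 ND arrays of Slc7a11 lie together at the bottom, below every low iron array, and the 7 week arrays of Slc7a11, Slc3a2 and Chac1 are spread widely. Slc7a11 was not well above background on any ND array or on 7 week replicate 2, so the place of that replicate above ND is not read.

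Slc7a11, the light chain that carries cystine, was not well above background on any ND array, with measured levels of -7.50, -7.55 and -7.43. At 3 weeks its levels were -0.91, -0.48 and -3.47, all well above background. At 7 weeks they were -1.40, -5.77 and -3.39, and replicate 2, at -5.77, was not well above background. Every measured low iron value lay above every ND value. The 3 week replicates 1 and 2 and the 7 week replicate 1 were highest, and the groups at 3 and 7 weeks overlapped. Kdm5d, a Y-linked gene not well above background on any array, stood at -5.76 on 7 week replicate 2 and from -7.56 to -7.44 on ND. The place of Slc7a11 above ND on that replicate is therefore not read as a higher level. The group means were -7.50 ± 0.06 on ND, -1.62 ± 1.61 at 3 weeks and -3.52 ± 2.19 at 7 weeks (SD, n = 3).

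Against ND, Slc7a11 was at least 12.6-fold higher at 3 weeks (limma adjusted p = 0.015). At 7 weeks the same calculation gave 3.39-fold higher (limma adjusted p = 0.0235). It enters 7 week replicate 2, not well above background, at its measured value, so 3.39-fold is not a strict lower bound. Both values hold for the processed signal. They set the mean of the low iron group against the lowest spot that was well above background on each ND array. With the normexp background correction, which adds an offset to every signal, the log2 differences were 2.96 at 3 weeks (adjusted p = 0.0304), smaller than the bound from the processed signal, and 1.89 at 7 weeks (adjusted p = 0.0792). The adjusted p takes the ND signal at its measured value, and Slc7a11 passed the filter on dim probes through the 3 week group alone, so its call is no support for the list.

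The Slc7a11 calls did not hold when some single arrays were left out, which also changes the sample number and the adjustment over all genes. The adjusted p at 3 weeks was 0.0626 without ND replicate 2, 0.0554 without ND replicate 3, 0.0554 without 3 week replicate 1 and 0.0648 without 3 week replicate 2. At 7 weeks it was 0.0741, 0.0574 and 0.0658 without ND replicates 1, 2 and 3, and 0.103 under quantile normalization. Against ND replicate 3 alone it was 0.345 at 3 weeks and 0.25 at 7 weeks.

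The 7 week level of Slc7a11 was 1.90 ± 1.06 lower than the 3 week level, with a 95% interval of the difference (7 minus 3 weeks) from -4.29 to 0.50, and did not pass (adjusted p = 0.188). It passed without 7 week replicate 1 (-2.96, adjusted p = 0.0303) and with no scaling between arrays (-2.86, adjusted p = 0.0427).

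Slc3a2, the heavy chain, was far above background on every array. Its levels were 7.06, 7.18 and 7.43 on ND, 7.41, 7.74 and 7.35 at 3 weeks, and 8.25, 5.86 and 6.80 at 7 weeks. The ND and 3 week groups overlapped, and the 7 week arrays held both the highest and the lowest value of the 9. The difference from ND was 0.28 ± 0.52 at 3 weeks (95% interval -0.90 to 1.46, limma adjusted p = 0.755) and -0.25 ± 0.52 at 7 weeks (95% interval -1.43 to 0.92, adjusted p = 0.736). Against ND replicate 3 alone it was 0.08 (adjusted p = 0.987) and -0.46 (adjusted p = 0.782). The 7 week value turned to 0.30 without 7 week replicate 2. Slc3a2 was 0.53 ± 0.52 lower at 7 than at 3 weeks and did not pass (adjusted p = 0.449), but passed without 7 week replicate 1 (-1.17, adjusted p = 0.0194), under quantile normalization (-1.46, adjusted p = 0.0269) and with no scaling between arrays (-1.50, adjusted p = 0.0342). Without 7 week replicate 2 the sign turned (0.02). The other light chains that pair with Slc3a2 are described with the wider pathway.

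Cth, cystathionine gamma-lyase, releases cysteine in the last step of transsulfuration. Its levels on the probe reported were -3.96, -4.56 and -3.86 on ND, -0.43, -0.34 and -0.89 at 3 weeks, and -2.44, -1.28 and -3.45 at 7 weeks. All 9 values were well above background, and the 3 groups were fully separated, with 3 weeks highest and ND lowest. The other Cth probe gave -3.92, -4.09 and -4.16 on ND, -0.52, -0.46 and -1.29 at 3 weeks, and -2.77, -1.40 and -3.17 at 7 weeks, in the same order of groups.

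Cth was 3.57 ± 0.50 higher at 3 weeks than on ND (11.9-fold, 95% interval 2.44 to 4.71, limma adjusted p = 0.00926). This call held without any 1 of the 9 arrays, with a highest adjusted p of 0.0466, and the difference was 2.80 with the normexp correction; with ND replicate 3 as the only control array the difference was 3.31 (adjusted p = 0.275). At 7 weeks Cth was 1.74 ± 0.50 higher than on ND (3.33-fold, 95% interval 0.60 to 2.87, adjusted p = 0.0314). The 7 week call was lost without ND replicate 1 (1.82, adjusted p = 0.0807), ND replicate 2 (1.52, adjusted p = 0.0928), ND replicate 3 (1.87, adjusted p = 0.0675) or 7 week replicate 2 (1.18, adjusted p = 0.0594), with no scaling between arrays (0.93, adjusted p = 0.116) and in a fit of the 2 groups alone (adjusted p = 0.0732). Against ND replicate 3 alone it was 1.47 (adjusted p = 0.33).

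The fall of Cth between 3 and 7 weeks also passed: the 7 week level was lower by 1.84 ± 0.50 on the log2 scale (difference -1.84, 95% interval -2.97 to -0.71, limma adjusted p = 0.0196). It did not pass without 3 week replicate 1 (-1.78, adjusted p = 0.059) or 3 week replicate 2 (-1.73, adjusted p = 0.0615), and it was larger with no scaling (-2.80, adjusted p = 0.0013). In a fit over 34486 single probes, the other Cth probe gave 3.30 at 3 weeks (adjusted p = 0.00712), 1.61 at 7 weeks (adjusted p = 0.0276) and -1.69 between the low iron groups (adjusted p = 0.017). Beside Cth, the summed monocyte and macrophage markers and B lineage markers were also highest at 3 weeks. The summed neutrophil markers overlapped between groups, but the median log2 difference of the 12 was 1.08 at 3 weeks against ND and -1.72 from 3 to 7 weeks. In the latter, 2 of the 12 were called higher and 5 lower, where 17.6% of all genes rose and 19.6% fell. The part of these cells in the Cth values was not tested.

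Cbs, cystathionine beta-synthase, catalyses the step before Cth and carries heme. Its levels were -2.59, -2.13 and -2.35 on ND, -1.75, -1.91 and -2.09 at 3 weeks, and 0.22, -0.62 and -1.28 at 7 weeks. The groups did not overlap, but the 3 week arrays lay close above ND and the 7 week arrays well above both. At 3 weeks the difference of 0.44 ± 0.38 did not pass (95% interval -0.41 to 1.29, limma adjusted p = 0.468). At 7 weeks Cbs was 1.80 ± 0.38 higher than on ND (3.48-fold, 95% interval 0.95 to 2.65, adjusted p = 0.00997), and the call held without any 1 array, with a highest adjusted p of 0.0467. With no scaling between arrays the 7 week difference was 0.99 (adjusted p = 0.03). Set against ND replicate 3 alone, the values were 0.44 at 3 weeks (adjusted p = 0.848) and 1.80 at 7 weeks (adjusted p = 0.169).

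Cbs was thus the reverse of Cth between the low iron groups: it was 1.36 ± 0.38 higher at 7 than at 3 weeks (95% interval 0.51 to 2.21, limma adjusted p = 0.0208). That call was lost without 3 week replicate 2 (1.36, adjusted p = 0.0543) or 3 week replicate 3 (1.27, adjusted p = 0.0708), with no scaling between arrays (0.39, adjusted p = 0.324), and in fits of the 2 groups alone or with ND replicate 3 as the only control array (adjusted p = 0.0554 in each).

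Gclc, the catalytic subunit of glutamate-cysteine ligase, performs the first and rate-limiting step of glutathione synthesis. Its levels were 7.15, 6.54 and 6.75 on ND, 6.20, 5.80 and 6.19 at 3 weeks, and 5.65, 5.08 and 5.45 at 7 weeks. The 3 groups were separated in descending order, each array of 1 group below each array of the group before. At 3 weeks the level was 0.75 ± 0.29 lower than on ND and did not pass (difference -0.75, 95% interval -1.39 to -0.11, limma adjusted p = 0.117). At 7 weeks Gclc fell by 1.42 ± 0.29 (2.68-fold lower, 95% interval of the difference -2.06 to -0.78, adjusted p = 0.00875). The 7 week call held without any 1 array, with a highest adjusted p of 0.0427, and the difference was larger with no scaling between arrays (-2.22). The values against ND replicate 3 alone were -0.69 at 3 weeks (adjusted p = 0.624) and -1.36 at 7 weeks (adjusted p = 0.162). Between 3 and 7 weeks the difference of -0.67 ± 0.29 did not pass (adjusted p = 0.0936), but passed without 7 week replicate 1 (-0.80, adjusted p = 0.0496), under quantile normalization (-1.26, adjusted p = 0.00697), with no scaling (-1.63, adjusted p = 0.00326) and with the normexp correction (-0.74, adjusted p = 0.0459).

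Gclm, the modifier subunit that raises the activity of Gclc, had levels of 5.66, 5.68 and 6.00 on ND, 5.84, 6.29 and 5.55 at 3 weeks, and 5.87, 4.13 and 5.20 at 7 weeks. All 3 groups overlapped, and 7 week replicate 2 was lowest. The difference from ND was 0.11 ± 0.43 at 3 weeks (95% interval -0.87 to 1.08, limma adjusted p = 0.896) and -0.72 ± 0.43 at 7 weeks (95% interval -1.69 to 0.26, adjusted p = 0.23). The sign at 3 weeks was not fixed, since it was -0.09 without 3 week replicate 2 and -0.11 with ND replicate 3 as the only control array. The 7 week difference against ND replicate 3 alone was -0.94 (adjusted p = 0.475). It passed without 7 week replicate 1 (-1.12, adjusted p = 0.0454) and with no scaling between arrays (-1.52, adjusted p = 0.0198). Between 3 and 7 weeks the difference of -0.82 ± 0.43 did not pass (adjusted p = 0.162); it passed without 7 week replicate 1 (-1.23, adjusted p = 0.0269), under quantile normalization (-1.32, adjusted p = 0.0285) and with no scaling (-1.79, adjusted p = 0.00895).

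Gss, glutathione synthetase, adds glycine in the last step. Its levels were 2.27, 2.01 and 2.16 on ND, 3.58, 4.01 and 3.38 at 3 weeks, and 4.58, 3.63 and 4.47 at 7 weeks. Every low iron array was above every ND array, and the 3 and 7 week groups overlapped. Gss was 1.51 ± 0.32 higher at 3 weeks (2.85-fold, 95% interval 0.78 to 2.24, limma adjusted p = 0.0231) and 2.08 ± 0.32 higher at 7 weeks (4.23-fold, 95% interval 1.35 to 2.81, adjusted p = 0.00384). The 3 week call was lost without ND replicate 1, 2 or 3 (1.57, 1.44 and 1.51, with adjusted p of 0.0652, 0.086 and 0.0777), 3 week replicate 1 (1.55, adjusted p = 0.0661) or 3 week replicate 2 (1.33, adjusted p = 0.0911). The 7 week call held without any 1 array, with a highest adjusted p of 0.0202, and the difference was 1.27 with no scaling between arrays (adjusted p = 0.0175). The values against ND replicate 3 alone were 1.499 (adjusted p = 0.399) and 2.07 (adjusted p = 0.113). Between 3 and 7 weeks Gss differed by 0.57 ± 0.32 and did not pass (adjusted p = 0.192); the value passed without 7 week replicate 2 (0.87, adjusted p = 0.048) and turned to -0.39 with no scaling between arrays. Within glutathione synthesis, then, the first enzyme fell while the last rose at 7 weeks.

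Chac1, a gamma-glutamylcyclotransferase that degrades glutathione in the cytosol and is known as a target of Atf4, had levels of -0.34, 0.07 and 1.45 on ND. At 3 weeks its levels were 4.69, 5.46 and 2.66, and at 7 weeks they were 4.40, -1.12 and 1.65. All 3 week arrays were above all ND arrays, whereas the 7 week arrays ran from below the ND range to the level of the 3 week group. The within-group SD was 0.94, 1.45 and 2.76 (n = 3 each).

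At 3 weeks the Chac1 difference of 3.88 ± 1.26 did not pass (95% interval 1.03 to 6.73, limma adjusted p = 0.0772). It passed in a fit of these 2 groups alone (adjusted p = 0.011), without 7 week replicate 1 (adjusted p = 0.0187) and without 7 week replicate 2 (adjusted p = 0.0317), each of which leaves out 7 week arrays from the shared spread. The value against ND replicate 3 alone was 2.82 (adjusted p = 0.648). At 7 weeks the difference of 1.26 ± 1.26 did not pass (95% interval -1.59 to 4.10, adjusted p = 0.471), and it was -0.12 without 7 week replicate 1 and 0.20 against ND replicate 3 alone (adjusted p = 0.963). Between 3 and 7 weeks the difference of -2.62 ± 1.26 did not pass (adjusted p = 0.132), but passed without 7 week replicate 1 (-4.001, adjusted p = 0.0133) and with no scaling (-3.59, adjusted p = 0.0349).

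**Figure D3:**
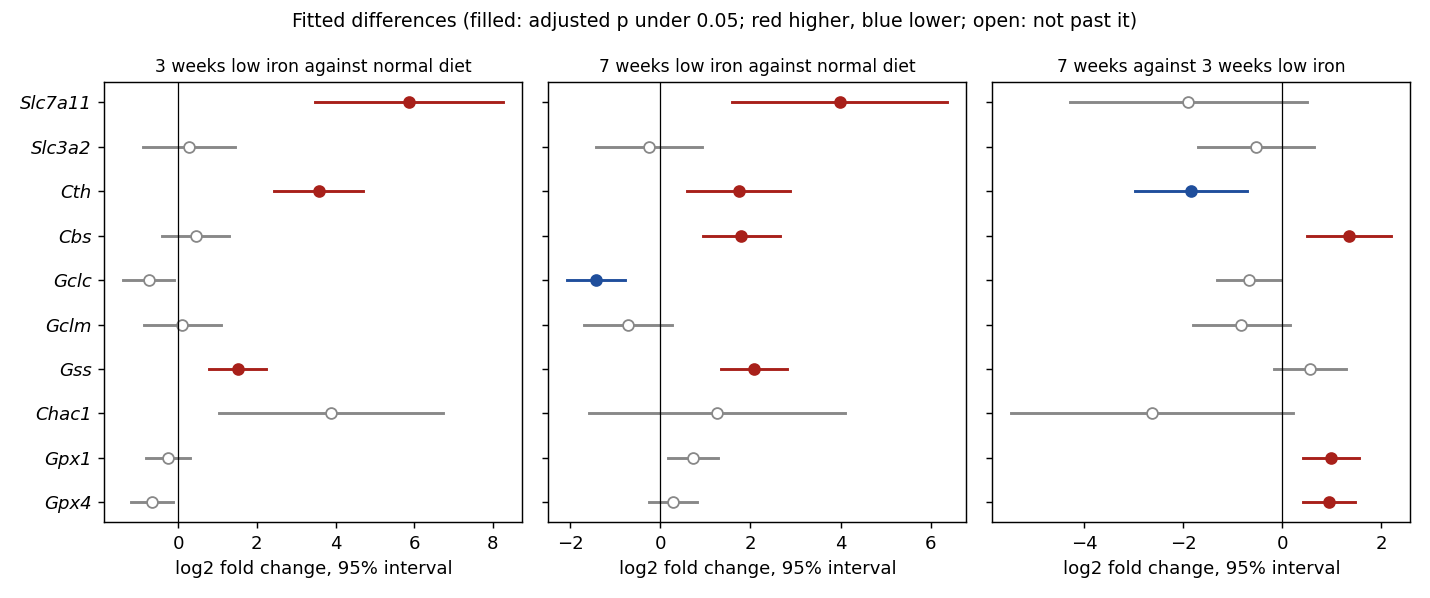
Fitted log2 differences with 95% intervals (horizontal axis) for the 10 genes in the 3 comparisons, filled where the adjusted p was under 0.05, red for higher and blue for lower. Slc7a11, Cth and Gss are filled in both comparisons with normal diet, and the intervals of Slc7a11 and Chac1 are the widest. The Slc7a11 differences from normal diet take normal diet signals that were not well above background at their measured value.

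Gpx1, the abundant cytosolic glutathione peroxidase, had levels of 8.52, 8.61 and 8.56 on ND, 8.31, 8.36 and 8.23 at 3 weeks, and 9.62, 9.22 and 9.03 at 7 weeks. Gpx4, which reduces lipid hydroperoxides in membranes and is the enzyme that blocks ferroptosis, had levels of 7.98, 8.08 and 7.89 on ND, 7.17, 7.44 and 7.35 at 3 weeks, and 8.15, 8.25 and 8.40 at 7 weeks. For both genes the 3 groups were separated, with 3 weeks lowest and 7 weeks highest. Both are selenoproteins, whose translation needs selenium.

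Against ND neither peroxidase passed. Gpx1 differed by -0.26 ± 0.25 at 3 weeks (95% interval -0.82 to 0.30, limma adjusted p = 0.513) and by 0.73 ± 0.25 at 7 weeks (95% interval 0.17 to 1.29, adjusted p = 0.0537). Gpx4 differed by -0.66 ± 0.23 at 3 weeks (95% interval -1.19 to -0.14, adjusted p = 0.0953) and by 0.28 ± 0.23 at 7 weeks (95% interval -0.24 to 0.81, adjusted p = 0.379). Some of these values passed in other fits: the 7 week Gpx1 difference was 0.86 (adjusted p = 0.0404) without 7 week replicate 3 and 0.81 (adjusted p = 0.0212) with the normexp correction and had an adjusted p of 0.048 over single probes, and the 3 week Gpx4 difference had an adjusted p of 0.0476 without 7 week replicate 1 and of 0.0406 in a fit of the 2 groups alone. Against ND replicate 3 alone the Gpx1 differences were -0.25 and 0.74 and those of Gpx4 -0.57 and 0.38, with adjusted p from 0.363 to 0.879.

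Between 3 and 7 weeks both peroxidases were called higher, Gpx1 by 0.99 ± 0.25 (95% interval 0.43 to 1.55, limma adjusted p = 0.0138) and Gpx4 by 0.95 ± 0.23 (95% interval 0.42 to 1.47, adjusted p = 0.0127). These calls depended on the scaling of the arrays. Under quantile normalization the differences were -0.14 for Gpx1 and -0.29 for Gpx4, and with no scaling they were 0.03 and -0.02, with adjusted p from 0.314 to 0.963. The Gpx4 call was also lost without 3 week replicate 1 (0.87, adjusted p = 0.0502).

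The 2 peroxidase probes were bright. The Gpx1 signal stood at 63.5% to 80.1% of the scanner's saturation value over the 9 arrays and the Gpx4 signal at 28.8% to 52.3%, and no spot was marked saturated. Before scaling, the mean log2 signal of Gpx1 was 19.17 on ND, 19.07 at 3 weeks and 19.09 at 7 weeks, and that of Gpx4 was 18.59, 18.09 and 18.07. The 7 week arrays thus had nearly the same unscaled peroxidase signal as the 3 week arrays, over a lower 75th percentile. Scaling also moved the median of all genes at 7 weeks against ND, from -0.26 as reported to -0.25 under quantile normalization and -1.07 with no scaling. With no scaling every gene's difference was 0.16 higher at 3 weeks than reported, and it stood at -0.80 relative to the reported value at 7 weeks and at -0.96 between the low iron groups. The 7 week Gpx1 difference from ND was 0.73 as reported, -0.09 under quantile normalization and -0.08 with no scaling. The number of all genes called higher and lower at 7 weeks was 1559 and 2719 as reported, and 454 and 6646 with no scaling. At 3 weeks the split was 510 higher and 1143 lower as reported, 615 and 808 under quantile normalization and 492 and 474 with no scaling.

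**Figure D4:**
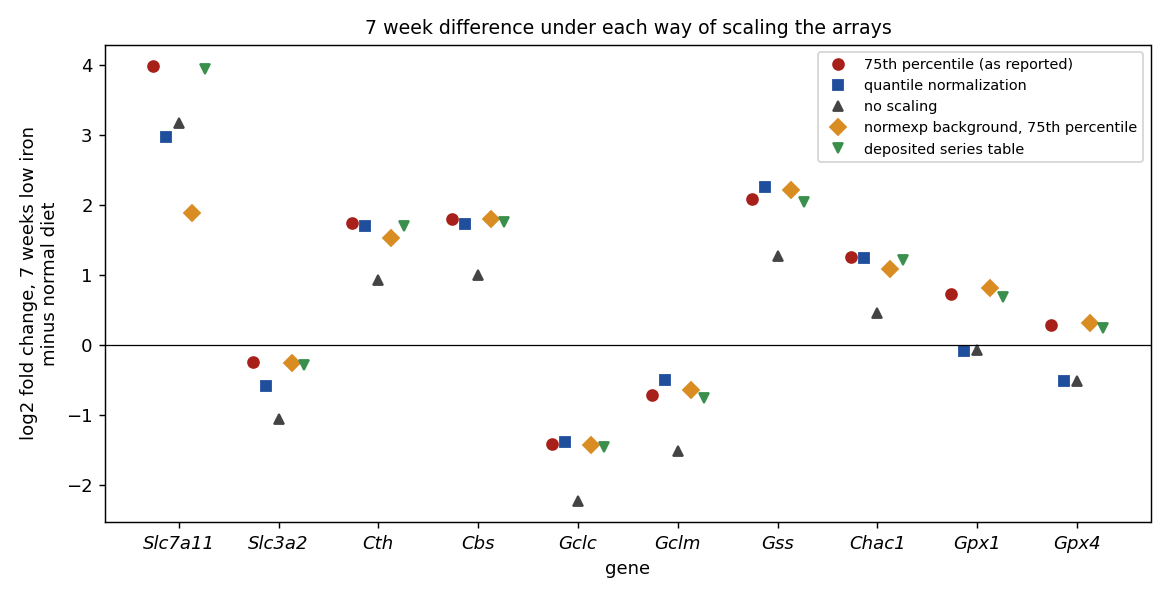
Log2 difference of 7 weeks low iron minus normal diet (vertical axis) for each gene under 5 ways of treating the signals. Slc7a11, Cth, Cbs, Gss and Chac1 stay above 0 and Gclc and Gclm below 0 under all 5, whereas Gpx1 and Gpx4 fall below 0 under quantile normalization and with no scaling.

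Between 3 and 7 weeks of low iron, Cbs, Gpx1 and Gpx4 were called higher and Cth lower, so 3 of the 10 genes rose and 1 fell where 17.6% of all genes rose and 19.6% fell; the rise of both peroxidases reversed or vanished under other scalings. The median difference of the 10 genes was -0.60, beside -0.13 over all genes. Of the fits that left out 1 array, the one without 7 week replicate 1 called the most of the 10 genes, 9, all but Gss. The number of all genes called also varied between such fits, with its range given below. The shares of all genes above belong to the fit of all 9 arrays, so this count is not set against them. Counted by separation of the 3 arrays of each group, 5 genes lay wholly higher and 3 wholly lower at 3 weeks than on ND, where 18% of all genes lay higher and 31.6% lower. At 7 weeks against ND, 6 lay higher and 1 lower (18.1% and 29.4% of all genes), and at 7 against 3 weeks 3 lay higher and 2 lower (23.2% and 25.2%). The 6 include Slc7a11, which was not well above background on any ND array or on 7 week replicate 2.

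The arrays of 1 low iron group differed among themselves in several of these genes at once. Among the 7 week arrays, replicate 1 was highest and replicate 2 lowest for Slc7a11, Slc3a2, Gclc, Gclm, Gss and Chac1. The same order was seen for Ddit3 and Trib3, stress-response genes induced through Atf4: Trib3 had levels of 9.22, 1.30 and 3.36 at 7 weeks and Ddit3 had 9.06, 3.87 and 4.16. Cth ran otherwise at 7 weeks, with replicate 2 highest. Among the 3 week arrays, replicate 3 was lowest for all of the 10 genes but Gclc and Gpx4, and for Trib3 and Ddit3, with Trib3 at 6.88, 7.20 and 4.95 and Ddit3 at 6.13, 6.77 and 5.03. Replicates of a group share no order across groups, and 3 arrays allow no test of such agreement.

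**Figure D5:**
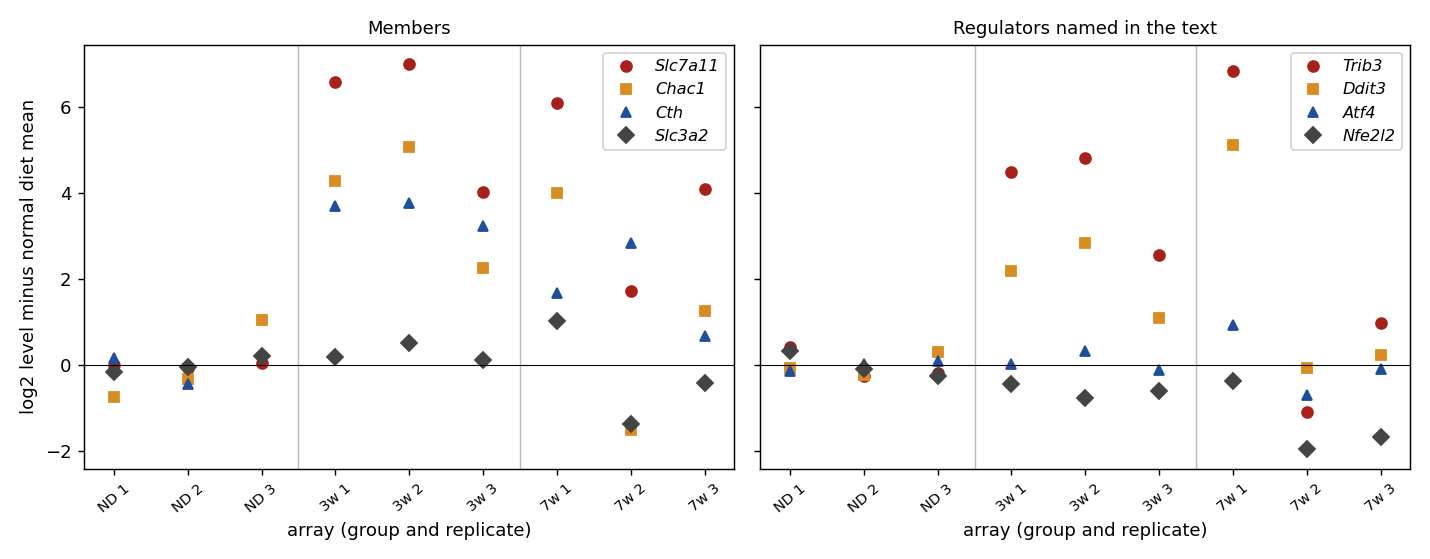
Level on each array minus the mean of the 3 normal diet arrays (log2, vertical axis) for 4 of the genes (left) and 4 regulators (right), array by array (ND normal diet, 3w and 7w low iron). Slc7a11 and Chac1 are high on 7 week replicate 1 and lower on replicate 2, as are Trib3 and Ddit3. Atf4 is drawn from 1 of its 2 probes, which disagree.

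Regulators known to act on these genes were measured on the same arrays. They comprised 13 genes, among them Atf4, the integrated stress response factor, Eif2ak1, the heme-regulated kinase upstream of it, and Nfe2l2, the factor of the antioxidant response. None of the 13 passed in limma at 3 weeks (median 0.08, with 1 higher and 2 lower at an unadjusted p under 0.05), where 3.52% of all genes rose and 7.88% fell, and 0 rose and 3 fell at 7 weeks (median -0.15), where 10.7% of all genes rose and 18.7% fell. At 3 weeks 4289 of all 14506 genes had an unadjusted p under 0.05, in either direction. Atf4 itself differed by 0.08 and 0.06 at 3 and 7 weeks on the probe reported, neither of them called, while its other probe gave 2.06 and -1.08; the 2 probes disagree, so no direction is read for Atf4. Trib3 stood at 2.82, 2.14 and 2.20 on ND and Ddit3 at 3.86, 3.70 and 4.23, and every 3 week array of each lay above. The Trib3 differences were 3.96 ± 1.66 at 3 weeks (limma adjusted p = 0.148) and 2.24 at 7 weeks (adjusted p = 0.324), and those of Ddit3 were 2.05 ± 1.19 (adjusted p = 0.282) and 1.77 (adjusted p = 0.281); none passed. Nfe2l2 fell by 1.33 ± 0.41 at 7 weeks (adjusted p = 0.0388) from a 3 week difference of -0.60 that did not pass. Eif2ak4, the kinase that senses amino acid shortage, fell by 2.20 ± 0.52 at 7 weeks (adjusted p = 0.0146). The other regulator that fell, Keap1, which holds Nfe2l2 in check, was named after its values were seen (-1.18, adjusted p = 0.0134). The Nfe2l2 call was lost under quantile normalization (-1.04, adjusted p = 0.0583). Against ND replicate 3 alone, all 7 and 22 calls at 3 and 7 weeks among these regulators and the other pathway genes described next kept their direction, and 0 passed.

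Of the other light chains that pair with Slc3a2, 3 of 5 were tested, and 0 rose in limma at either time against ND (1 at 3 weeks and 0 at 7 weeks at an unadjusted p under 0.05). Over all 14506 genes 3.52% rose at 3 weeks and 10.7% at 7 weeks. An unadjusted p under 0.05, in either direction, was reached by 4289 and 6258 of them. Slc7a5, which imports large neutral amino acids, differed by -0.01 at 3 weeks and 0.52 at 7 weeks and was not called. Slc7a7, which exports cationic amino acids, was the 1 called light chain: it fell by 1.90 ± 0.34 at 7 weeks against ND (limma adjusted p = 0.00571) and fell by 2.94 ± 0.34 from 3 to 7 weeks (adjusted p = 0.000562). Its levels were 0.73, 0.90 and 0.61 on ND, 1.51, 2.20 and 1.65 at 3 weeks, and -0.58, -1.23 and -1.66 at 7 weeks, so the groups ran in the same order as the summed monocyte and macrophage markers, whose part was not tested.

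Among 19 tested genes that supply cysteine or handle its sulfur, 2 rose and 1 fell at 3 weeks (median 0.04), and 1 rose and 5 fell at 7 weeks (median -0.37), where 3.52% and 7.88% of all genes rose and fell at 3 weeks and 10.7% and 18.7% at 7 weeks. With no scaling 0 rose and 10 fell at 7 weeks, beside 454 and 6646 of all 14506 genes. At 3 weeks Ahcyl1, a relative of the hydrolase Ahcy, rose by 1.604 ± 0.41 (limma adjusted p = 0.0375) and Ahcy, which makes homocysteine, rose by 1.37 ± 0.38 (adjusted p = 0.05, just under the threshold before rounding). Slc1a4, a neutral amino acid transporter, fell by 1.97 ± 0.45 (adjusted p = 0.0275). Under quantile normalization Ahcy (adjusted p = 0.0548) and Slc1a4 (adjusted p = 0.0536) did not pass, and with no scaling none of the 3 did. At 7 weeks the called genes included enzymes of sulfide and sulfite oxidation. Sqor, which oxidises hydrogen sulfide in mitochondria, fell by 5.67 ± 0.49 (adjusted p = 0.000814), and Suox, sulfite oxidase, fell by 3.96 ± 0.71 (adjusted p = 0.00623).

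Sqor had levels of 4.97, 4.59 and 4.19 on ND, 3.16, 3.17 and 3.97 at 3 weeks, and -1.84, 0.01 and -1.42 at 7 weeks, with the 7 week arrays far below all others. Csad, which acts on the way from cysteine to taurine, fell by 2.52 ± 0.67 (limma adjusted p = 0.0228) and Mpst, which transfers sulfur from a cysteine derivative, fell by 2.26 ± 0.65 (adjusted p = 0.0312, and 0.0692 under quantile normalization). The remaining calls at 7 weeks, named after their values were seen, were Ahcy (-1.50, adjusted p = 0.0204, well above background on 2 of the 3 arrays at 7 weeks) and the sulfur transferase Tst (1.10, adjusted p = 0.0337, and 0.454 with no scaling). The other probe of each gene stood near 0 at 7 weeks, at -0.06 for Ahcy and -0.09 for Tst, so no direction is read for either there. From 3 to 7 weeks, 0 of the 19 rose (2 at an unadjusted p under 0.05) and 4 fell (median -0.73). Over all 14506 genes 17.6% rose and 19.6% fell, and 6880 had an unadjusted p under 0.05 in either direction. With no scaling 0 of the 19 rose and 13 fell, beside 826 and 6804 of all genes. The 4 that fell as reported had differences of -4.52 ± 0.49 for Sqor (adjusted p = 0.000498), -2.87 ± 0.38 for Ahcy (adjusted p = 0.000978), -2.81 ± 0.41 for Ahcyl1 (adjusted p = 0.00132) and -2.52 ± 0.71 for Suox (adjusted p = 0.0227). The other Ahcy probe differed by 0.83 at 3 weeks and by -0.88 between the low iron groups. The other Ahcyl1 probe differed by 0.60 at 3 weeks and by -3.90 between the low iron groups.

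Among 31 tested genes that use, recycle or transport glutathione, 1 rose and 1 fell at 3 weeks (median -0.21), 2 rose and 4 fell at 7 weeks (median -0.04), and 8 rose and 7 fell from 3 to 7 weeks (median 0.29). Over all genes 3.52% rose and 7.88% fell at 3 weeks, 10.7% and 18.7% at 7 weeks and 17.6% and 19.6% between them. These counts changed with the processing, as did those of all 14506 genes. At 7 weeks 1 of the 31 rose and 8 fell with no scaling, beside 454 and 6646 of all genes. With the normexp correction 6 rose and 3 fell at 7 weeks, beside 2013 and 2484. From 3 to 7 weeks 0 rose and 9 fell with no scaling, beside 826 and 6804. Slc25a39, which carries glutathione into mitochondria, had levels of 0.31, 0.15 and 1.11 on ND, 2.86, 3.23 and 2.37 at 3 weeks, and 0.79, -0.46 and 1.25 at 7 weeks. It was high on the 3 week arrays alone: it rose by 2.29 ± 0.48 at 3 weeks (limma adjusted p = 0.0214), stood at a difference of 0.00 at 7 weeks and fell by 2.29 ± 0.48 between them (adjusted p = 0.00606). Glrx5, a mitochondrial glutaredoxin of iron-sulfur cluster assembly, differed by -0.21 at 3 weeks, which was not called, and rose by 0.91 ± 0.26 at 7 weeks (adjusted p = 0.029), but by 0.08 under quantile normalization (adjusted p = 0.813) and by 0.11 with no scaling (adjusted p = 0.756). Glrx2, another mitochondrial glutaredoxin, fell by 1.15 ± 0.30 at 3 weeks (adjusted p = 0.0424), a call lost under quantile normalization (-0.84, adjusted p = 0.0714) and with no scaling (-0.99, adjusted p = 0.126). The other Glrx2 probe differed by 0.20 at 3 weeks, so no direction is read for Glrx2.

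Among the glutathione transferases, Gstm2 and Gsta4 were called at 7 weeks. Gstm2 was higher by 2.03 ± 0.38 on the probe reported (limma adjusted p = 0.00689) and by 0.08 on its other probe, so its rise rests on 1 probe. Gsta4 was not well above background on any 7 week array and was at least 1.57-fold lower than on ND (adjusted p = 0.0115), a call lost with the normexp correction (-0.63, adjusted p = 0.107). The others that fell at 7 weeks, named after their values were seen, were Gstt1 (-1.30, adjusted p = 0.0483), the peptidase Lap3 (-1.45, adjusted p = 0.0305) and Chac2, the relative of Chac1 (-1.79, adjusted p = 0.045), and these 3 did not pass under quantile normalization, nor Chac2 with the normexp correction (adjusted p = 0.0529). Gsr, which reduces oxidised glutathione, differed by -0.01 at 3 weeks and 0.49 at 7 weeks, and G6pdx, which supplies NADPH, by -0.14 and -0.07; none of these was called.

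Of 14 genes of selenoprotein synthesis and other selenoproteins, 1 rose and 1 fell at 3 weeks (median -0.13), 2 rose and 4 fell at 7 weeks (median -0.58), and 2 rose and 3 fell from 3 to 7 weeks (median -0.56). Over all genes the shares that rose and fell were 3.52% and 7.88%, 10.7% and 18.7%, and 17.6% and 19.6%. With no scaling 1 rose and 8 fell in each of the last 2 comparisons. Of all 14506 genes 454 rose and 6646 fell in the first of these, and 826 and 6804 in the second. Secisbp2, which binds the selenocysteine insertion element of messenger RNAs such as those of Gpx1 and Gpx4, rose by 1.75 ± 0.42 at 3 weeks on the probe reported (limma adjusted p = 0.0313), while its other probe differed by 0.29. Sephs2, which makes the selenium donor, was well above background on all ND and 3 week arrays and on 1 of 3 arrays at 7 weeks. Its levels were 0.16, -1.30 and -0.67 on ND, 0.30, 0.67 and 1.43 at 3 weeks, and -5.32, -5.28 and -3.51 at 7 weeks, far below every other array. It fell at 7 weeks against ND (adjusted p = 0.00279) and from 3 to 7 weeks (adjusted p = 0.000461). The differences were -4.10 and -5.499 with the dim 7 week signals at their measured value, and -2.58 and -3.845 with the normexp correction. Sepsecs, which completes selenocysteine on its transfer RNA, fell by 2.94 ± 0.86 from 3 to 7 weeks (adjusted p = 0.0257), with 2 of 3 arrays at 7 weeks well above background. Selenow, a small selenoprotein, fell by 1.30 ± 0.36 at 3 weeks (adjusted p = 0.0475) and rose by 2.09 ± 0.36 at 7 weeks (adjusted p = 0.00508), the order of groups also seen for Gpx1 and Gpx4. The 3 week Selenow call was lost under quantile normalization (adjusted p = 0.0508) and with no scaling (adjusted p = 0.123). The others called at 7 weeks, named after their values were seen, were Selenok (1.24), Sephs1 (-1.40), Selenop (-1.57) and Selenof (-1.01), with adjusted p from 0.00555 to 0.0314. The Selenok call was lost with no scaling (0.43, adjusted p = 0.231), and its other probe differed by 0.38. Txnrd1, thioredoxin reductase, differed by -0.27 and 0.37 and was not called.

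The tested genes whose level, centred on its mean, lay nearest to Slc7a11 over the 9 arrays were Trim15, Gdf15, Prr13, Tmprss9 and Chac1. Their root mean square differences from Slc7a11 were 0.83, 1.08, 1.14, 1.26 and 1.26 on the log2 scale, where Slc7a11 itself had an SD of 2.93 over the 9 arrays. The ND values of Slc7a11 in this measure were not well above background. The nearest to Chac1 were Soat2, 1700102P08Rik, Gtpbp2, Ms4a6b and Anks3, at 0.91, 0.95, 0.96, 1.03 and 1.04 (SD of Chac1 2.36). Of these neighbours, Trim15 and Chac1 held TGATGCAA in a promoter window. Each Trim15 window also held 2 matches to TGACNNNGC, and Chac1 held none. Gdf15, Tmprss9, 1700102P08Rik, Gtpbp2, Ms4a6b and Anks3 held no match to either motif, and no window was listed for Prr13 or Soat2.

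The nearest to Cth were H2-Aa, Gpt2, Gria3, Mfsd7a and Edaradd, at 0.38, 0.45, 0.51, 0.58 and 0.60 (SD of Cth 1.66). On every ND and 7 week array, Gria3, Mfsd7a and Edaradd lay below the lowest spot that was well above background there. Gpt2 did so on ND replicates 2 and 3 and on 7 week replicates 1 and 3. The nearness of these 4 genes thus rests in part on dim signals at their measured value. H2-Aa encodes a chain of MHC class II, a complex of antigen-presenting cells, and Gpt2 is a mitochondrial alanine transaminase. H2-Aa stood at -1.89, -1.74 and -1.05 on ND, 1.69, 2.48 and 1.30 at 3 weeks, and -0.17, 0.46 and -0.72 at 7 weeks. The groups of H2-Aa were separated in the order of those of Cth. The nearness of profiles over 9 arrays that share slides by group is a description.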

How the data were processed

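Total RNA of sorted erythroblasts was amplified and labelled with Cy3, per the labels' protocols. Each deposited scanner file gives spot intensity from Agilent Feature Extraction 10.7.3.1, background-subtracted within the array and not scaled between arrays, per the file headers. A deposited series table gives the same arrays as log2 values, centred on each probe's median, which correlated with the scanner values at r of 0.997 to 0.999; how it was scaled between arrays is not given in the sources used here.

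Control and outlier spots were left out, spots of a probe were averaged, and the array's 75th percentile was subtracted on the log2 scale. Probes were named through RefSeq accessions, which gave 26413 named probes; 29268 stayed unnamed. A gene was tested by its brightest probe among those well above background on every array of 1 or more groups. limma 3.58.1 (lmFit, eBayes) in R 4.3.3 fitted all 9 arrays in 1 model, two-sided, with Benjamini-Hochberg adjustment over 14506 genes and a threshold of 0.05; the code was tested on simulated data. P-values measure the spread between the 3 samples of a group.

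The 10 genes, the lists and the rules were chosen with earlier results of these data known. Of the pathway lists, the 10 called genes with the largest change per comparison were open to naming, with 10 set genes whatever their result, and the 5 nearest profiles of Slc7a11, Cth and Chac1. Same-numbered replicates did not deviate together throughout (r from -0.17 to 0.29), so no pairing was fitted in the reported model. Alternatives were quantile normalization, no scaling, normexp with an offset of 50 on the median signal (chosen after the files were seen, since a mean signal column was not used here), no filter on dim probes, the mean of a gene's probes, single probes, the deposited table, only the 2 groups compared, each array left out, ND replicate 3 as the only control array and a replicate block.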

Additional observations from a re-analysis of the deposited data

Results flagged for a closer look

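For 4 of the 10 genes the effects of 3 and 7 weeks of low iron diet, measured against the same normal diet arrays, differed by limma's test of 7 against 3 weeks. Cth differed by -1.84 on the log2 scale (adjusted p = 0.0196), Cbs by 1.36 (adjusted p = 0.0208), Gpx1 by 0.99 (adjusted p = 0.0138) and Gpx4 by 0.95 (adjusted p = 0.0127). Cth was higher than on normal diet at both times and less so at 7 weeks, while Cbs was called at 7 weeks. For Gpx1 and Gpx4 the differences were -0.14 and -0.29 under quantile normalization.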

How the results depend on the processing

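Over 19 alternatives, 228 values of called genes were recomputed: 225 kept their direction and 188 stayed past the threshold, and the 3 that reversed were Gpx1 and Gpx4 at 7 against 3 weeks. Under quantile normalization the reversed values were 0.045 for Gpx1 at 3 weeks, -0.094 at 7 weeks and -0.14 between them, and -0.52 and -0.29 for Gpx4 at 7 weeks and at 7 against 3 weeks. With no scaling between arrays, 966 genes passed at 3 weeks and 7100 at 7 weeks, Gpx1 was -0.077 and Gpx4 -0.52 at 7 weeks, and Gpx4 was -0.018 and Gss -0.39 at 7 against 3 weeks. With every probe tested on its own, 4549, 10440 and 13647 probes passed in the 3 comparisons, out of more features tested. With no filter on dim probes 6939 genes passed at 7 weeks. In fits of only the 2 groups compared, 4416 genes and 5 of the 10 passed at 3 weeks and 2819 genes at 7 weeks; the cause was not tested.

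When normal diet replicate 3 was the only control, limma called 0 genes at 3 weeks and 1 at 7 weeks (1588 and 3047 at an unadjusted p under 0.05), 0 of the 10 at either time, and Gclm at 3 weeks was -0.11; this fit has fewer samples. Leaving out 1 array at a time, the genes called ranged from 198 to 3503 at 3 weeks, 1739 to 5210 at 7 weeks and 3544 to 6489 between them, and of the 10 from 1 to 5, 3 to 6 and 2 to 9. Gclm at 3 weeks ranged from -0.091 to 0.28, Slc3a2 from -0.90 to 0.30 and Chac1 from -0.12 to 2.64 at 7 weeks, and Slc3a2 from -1.17 to 0.025 at 7 against 3 weeks.

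With the replicate block, 1401, 4063 and 5245 genes and 3, 5 and 4 of the 10 passed, and no call among the 10 changed; the samples share only a number. Limits: 3 arrays per group, each group on its own slide, and 2 normal diet libraries that go against their sex label. At 7 weeks fewer spots were above background (45.0% to 53.4%), and spike-in spots stood higher over the 75th percentile than on the other arrays. The ND signals of Slc7a11 were not well above background, so its difference from ND has only a bound at 3 weeks. At 7 weeks that bound is not strict, since replicate 2 was not well above background either.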
